A study of Homo sapiens with 2 samples.

Results

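The regions described here were strongly listed as accessible in untreated CAL27 cells and had no counterpart in the list of lactate-treated cells. CAL27 is a cell line established from a human squamous carcinoma of the tongue, and its open chromatin was mapped by ATAC-seq, an assay that lets Tn5 transposase insert sequencing adapters into accessible DNA. The lactate group was 1 library of cells given 10 mM lactate for 24 h, and the untreated group was 1 library of cells without treatment. Neither label names any other agent or genetic change. The lactate library held 15401276 tags and the untreated library 18248413 tags, and peaks had been called in each library by itself.

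A member was an untreated region on chromosomes 1 to 22 or X that no lactate region touched by even 1 bp and whose strength was 7 or more. Strength is the −log10 of a Poisson p, recomputed for the best summit of a region from its pileup, the number of 200 bp tags covering the summit, and from the fold enrichment over local background that the authors' peak caller gave. Single-summit regions of a narrow class, a little over 200 bp wide and frequent in both lists, were left out. The rule found 3190 untreated-only regions among 61708 strong untreated regions, or 5.17% (95% exact binomial interval 4.996 to 5.347). Both lists together held 220551 regions. The other 58518 strong untreated regions were overlapped by a lactate region and are called shared, and by the same rule turned round 16071 of 80998 strong lactate regions were lactate-only, or 19.8%. Among untreated regions of any strength, 9765 of 98152 were untreated-only, or 9.95%.

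Members were selected on pileup and fold in the untreated list and on position in both lists, so these values are given as a description. With 1 library on each side nothing could be compared between cultures, and no test was made. Every interval is a 95% exact binomial interval that covers counting error only. Absence from the lactate list means that no stretch of at least 200 bp passed the authors' q-value threshold of 0.05 there, and no lactate tag count at the members is part of the lists used here. Lactate and anything else that differed between the libraries, their depth included, cannot be told apart with 1 library per group.

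In chromatin, most DNA is wrapped around nucleosomes and resists transposition, while promoters and enhancers bound by transcription factors are kept open. Promoters of broadly used genes tend to be open in most cells and lie in sequence rich in CG, whereas distal elements differ more between cell states. Lactate is the end product of glycolysis in many tumours, enters cells through monocarboxylate transporters and can be attached to histone lysines as lactylation, a mark associated with active genes. Long genes of other tissues and wide stretches without genes are often packed into closed chromatin.

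At 38 of the 22132 promoters of protein-coding genes in the table used here, or 0.172%, an untreated-only region overlapped the 300 bases from 250 before to 50 after the start, and these promoters belonged to 36 genes. Of these 38, the 6 with the strongest region among those with the start inside it are printed because there the region missing from the lactate list falls on a transcription start. Sequences are from RefSeq, build GRCh38.p14, and run 5′ to 3′ on the strand of the gene, with the matches to any of 14 searched motifs in capitals on either strand.
COQ8B, chr19:40715070-40715369, minus strand: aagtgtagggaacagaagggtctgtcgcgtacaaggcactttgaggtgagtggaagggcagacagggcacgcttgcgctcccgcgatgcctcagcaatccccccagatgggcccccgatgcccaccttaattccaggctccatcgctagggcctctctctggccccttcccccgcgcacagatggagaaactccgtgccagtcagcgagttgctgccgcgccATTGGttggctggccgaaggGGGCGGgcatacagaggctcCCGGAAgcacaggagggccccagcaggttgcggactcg
SH3BP4, chr2:235027485-235027784, plus strand: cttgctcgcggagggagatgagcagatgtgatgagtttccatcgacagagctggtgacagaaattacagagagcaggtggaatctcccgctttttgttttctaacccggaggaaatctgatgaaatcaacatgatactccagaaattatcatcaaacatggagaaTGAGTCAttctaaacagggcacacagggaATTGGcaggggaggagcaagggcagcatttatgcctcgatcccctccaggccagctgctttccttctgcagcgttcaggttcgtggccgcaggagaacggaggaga
MRO, chr18:50819967-50820266, minus strand: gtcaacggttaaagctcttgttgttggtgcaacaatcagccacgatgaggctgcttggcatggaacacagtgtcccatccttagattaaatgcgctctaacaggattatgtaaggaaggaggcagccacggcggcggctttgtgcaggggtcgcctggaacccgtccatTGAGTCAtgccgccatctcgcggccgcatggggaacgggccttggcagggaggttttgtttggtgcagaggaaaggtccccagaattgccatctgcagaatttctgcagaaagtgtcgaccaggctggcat
KMO, chr1:241532128-241532427, plus strand: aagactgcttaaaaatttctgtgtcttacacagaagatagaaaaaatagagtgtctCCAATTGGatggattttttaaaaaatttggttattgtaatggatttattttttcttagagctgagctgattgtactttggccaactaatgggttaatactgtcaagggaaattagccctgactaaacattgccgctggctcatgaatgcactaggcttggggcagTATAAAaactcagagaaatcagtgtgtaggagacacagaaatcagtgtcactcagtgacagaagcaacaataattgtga
ZNF423, chr16:49857870-49858169, minus strand: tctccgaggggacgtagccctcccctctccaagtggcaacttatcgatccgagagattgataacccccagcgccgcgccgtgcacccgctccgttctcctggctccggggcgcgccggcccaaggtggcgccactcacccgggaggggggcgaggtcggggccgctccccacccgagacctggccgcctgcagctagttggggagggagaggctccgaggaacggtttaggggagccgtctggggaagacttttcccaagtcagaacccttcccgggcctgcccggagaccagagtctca
WDR87, chr19:37906545-37906844, minus strand: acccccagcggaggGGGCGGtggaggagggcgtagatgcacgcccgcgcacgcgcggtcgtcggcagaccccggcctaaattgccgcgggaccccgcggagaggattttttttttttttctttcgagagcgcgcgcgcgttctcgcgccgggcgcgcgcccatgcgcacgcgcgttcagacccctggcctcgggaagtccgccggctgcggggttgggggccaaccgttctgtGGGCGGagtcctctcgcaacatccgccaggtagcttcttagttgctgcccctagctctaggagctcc

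Untreated-only regions overlapped 4 of 1558 miRNA hairpins, or 0.257%, while strong shared untreated regions overlapped 89 and lactate-only regions 12. These were picked after their values were seen. Their mature sequences in the RefSeq table, build GRCh38.p14, are printed with the seed, bases 2 to 8, in capitals, since the seed sets which messages a miRNA pairs with.
hsa-miR-320b, chr1:116671787-116671808, plus strand: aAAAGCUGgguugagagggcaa
hsa-miR-550a-5p, chr7:30289815-30289837, plus strand: aGUGCCUGagggaguaagagccc
hsa-miR-550b-3p, chr7:30289814-30289833, minus strand: uCUUACUCccucaggcacug
hsa-miR-550b-2-5p, chr7:30289854-30289875, minus strand: aUGUGCCUgagggaguaagaca
hsa-miR-34c-3p, chr11:111513484-111513505, plus strand: aAUCACUAaccacacggccagg
No seed was shared among the 5 sequences printed, and any mature sequences of these hairpins not printed here were not compared.

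The searched motifs were AP-1 (TGANTCA), SP/KLF (GGGCGG), NFY (CCAAT), TATA box (TATAAA), ETS (CCGGAA), CRE (TGACGTCA), E-box (CACGTG), TEAD (GGAATG), NRF1, C/EBP (TTGCNNAA), p53 family, hypoxia response (ACGTG), GATA factors (AGATAA) and homeobox (TAATTA). Both strands were read, and the E-box letters contain those of the hypoxia response motif. SH3BP4, which encodes a protein of receptor endocytosis, and MRO, the maestro gene, each held an AP-1 match, as did 6.15% of all 22132 promoters. COQ8B, needed for coenzyme Q synthesis in mitochondria, held matches to SP/KLF, NFY and ETS. KMO, which encodes the kynurenine 3-monooxygenase of tryptophan breakdown, held a TATA box and had a GC content of 36.7%. ZNF423, a zinc finger transcription factor gene, held none of the 14 motifs, and WDR87 held SP/KLF matches.

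The start lay inside the untreated-only region at 32 of the 38 promoters, and by the rule no lactate region could lie on those starts. A lactate region touched any of the 300 bases at 3 of the 38, but one often lay nearby. For 22 of the 38, a lactate region lay within 1 kb of the promoter start. The gene table places some starts elsewhere, and by its coordinates 21 of the 38 had a lactate region at an end of the gene, where a gene end means no more than 1 kb from the start or the far end. The COQ8B region (chr19:40715005-40715236, hg38) had a pileup of 70 and a fold of 3.81 in the untreated list, and the nearest lactate region, with a pileup of 130, began 359 bp away. At SH3BP4 (chr2:235027531-235027831) the pileup was 48 and the fold 3.83, with a lactate region 215 bp away. At MRO (chr18:50819951-50820220) the pileup was 15 and the fold 7.35, with a lactate region 270 bp away. The regions over the ZNF423 and WDR87 starts had pileups of 23 and 24 and folds of 4.80 and 4.60, with a lactate region 249 and 239 bp away.

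The same promoters were less rich in CG than those of shared regions. Their median GC content was 62.7%, against 65.3% in the 10384 promoters under strong shared untreated regions, 69.3% in 641 under lactate-only regions and 62.3% in all. GC content was below 50% in 10 of the 38 promoters (26.3%), against 5.96% of the shared ones, 8.74% of the lactate-only ones and 19.6% of all. The median CpG ratio, observed over expected from base content, was 0.648, against 0.847, 0.811 and 0.738 in the same order. An ETS match was found in 3 of the 38 (7.895%, 1.66 to 21.4), against 32.3% under shared regions and 21.2% of all promoters. An SP/KLF match was found in 20 of the 38 (52.6%, 35.8 to 69.0), against 72.1% under shared regions and 56.3% of all. AP-1 matches were found in 4 of the 38 (10.5%, 2.94 to 24.8), against 5.50% under shared regions, and NFY matches in 13 (34.2%, 19.6 to 51.35), against 39.1% and 34.6% of all. The ETS and SP/KLF shares had intervals that lay below the shares under shared regions, while those of AP-1 and NFY covered them. Beside the shares of all promoters, C/EBP matches were found in 6 of the 38 (15.8% against 8.69%), hypoxia response matches in 8 (21.1% against 23.1%) and TEAD in 4 (10.5% against 12.2%). NRF1 and the TATA box were found in 3 each (7.895%, against 1.51% and 9.46%), GATA factors and homeobox in 2 each (5.26%, against 7.88% and 3.40%) and the E-box in 1 (2.63% against 8.34%). CRE and p53 family matches were found in 0, which allows a share of up to 9.25%, against 2.26% and 0.230% of all promoters. Overlapping promoters under the same member, at LMO3, at FANK1 and at LOC124900839 with NICOL1, were counted separately in these shares and intervals. NRF1 matches were listed for both LOC124900839 and NICOL1.

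Untreated-only regions were low, single and short. Their pileups ran from 10 to 95 tags with a median of 13, against a median of 24 in strong shared untreated regions and 15 in lactate-only regions. The fold ran from 1.88 to 22.6 with a median of 5.05, and the strength had a median of 8.30, an upper quartile of 9.67 and a maximum of 61.6, against a median of 14.6 and an upper quartile of 23.7 in shared regions. The upper quartile of the members lay below the lower quartile of shared regions, 9.90. The members were thus strong by the threshold of 7 but mostly weaker than shared regions. Lactate-only regions had a median strength of 10.2. A single summit was listed in 98.5% of them, against 67.1% of shared and 97.8% of lactate-only regions. The median width was 200 bp, which is also the smallest width in either list, and the widest was 1039 bp.

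Width separated untreated-only from shared regions within bands of strength too. Exactly 200 bp wide were 1725 of the 3190 (54.1%, 52.3 to 55.8), against 7.38% of shared and 9.81% of lactate-only regions. Wider than 400 bp were 5.55% (4.78 to 6.40), against 62.25% of shared and 12.9% of lactate-only regions. Read the other way, 28.6% of the 6042 strong untreated regions of exactly 200 bp were untreated-only, against 13.9% of those up to 250 bp, 5.88% of those above that and up to 300 bp, 2.59% up to 400 bp, 0.997% up to 600 bp and 0.145% of those wider than 600 bp. By strength, the untreated-only share was 17.96% from 7 to 8, 11.8% from 8 to 10, 4.03% from 10 to 15 and 0.727% from 15 to 20, and 16 of 19035 regions of strength 20 or more were untreated-only (0.0841%, 0.0481 to 0.137).

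In each band of strength the 200 bp regions were the ones more often missing from the lactate list. From strength 7 to 8 the untreated-only share was 34.4% at exactly 200 bp and 10.7% above that width. From 10 to 15 it was 20.75% and 2.41%, and at 15 or more it was 11.9% and 0.147%. The band of 15 or more has no upper limit, so strengths can differ within it. Among strong lactate regions the split ran both ways. The lactate-only share was higher at exactly 200 bp than above it from strength 7 to 8 (67.5% and 51.5%) and at 15 or more (14.4% and 5.78%), and lower from 8 to 10 (48.4% and 52.6%) and from 10 to 15 (29.3% and 35.1%). The lowest width held an excess of regions in both lists, 13287 in the lactate list and 12801 in the untreated list, against 425 and 385 at the width 1 bp above.

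**Figure D1:**
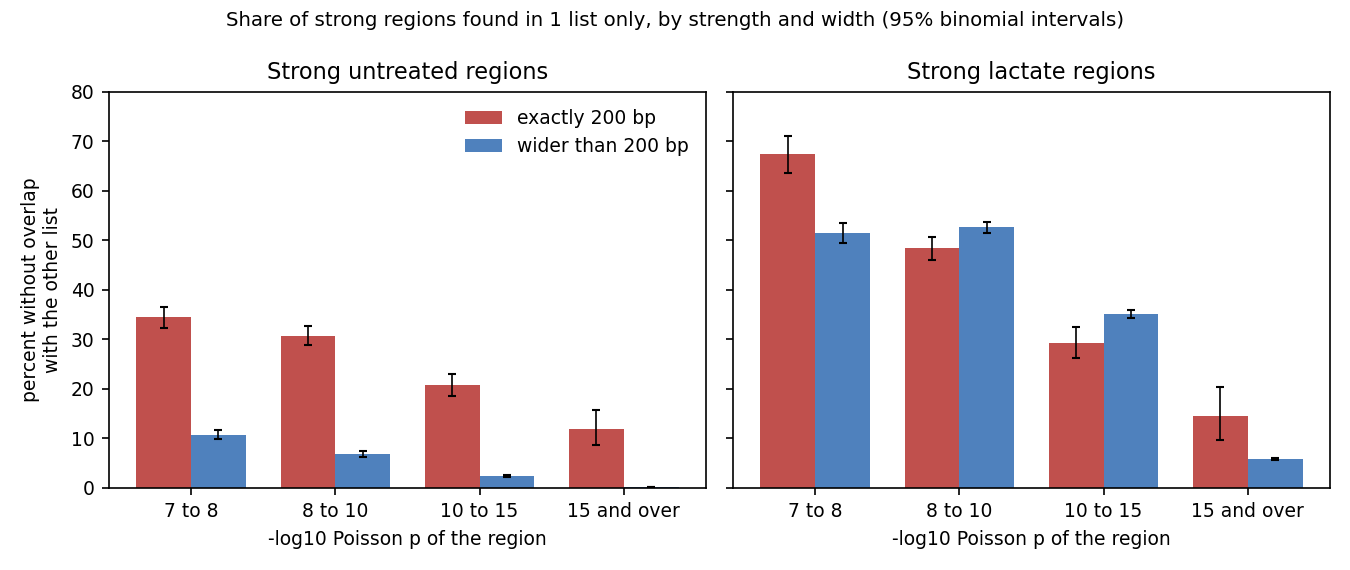
Percent of strong untreated regions (left) and strong lactate regions (right) without overlap with the other list, by strength and by width, with 95% binomial intervals. In the untreated list the bars of 200 bp regions stand above those of wider regions in every band, 34.4% against 10.7% in the first, while in the lactate list they do so in the first and last bands.

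The threshold cut through a dense range of weak values. Just inside it lay a region within DOCK9, a guanine nucleotide exchange factor, and another 21817 bp from CDH5, both with a pileup of 16, a fold of 3.92 and a strength of 7.01, and another at an end of CD59, with a pileup of 24 and a strength of 7.015. Just outside it lay regions within KIAA0319L and EXO1, each with a pileup of 10, a fold of 4.87 and a strength of 6.997. Many members also shared the same few values. The local background stood at its genome-wide minimum of 1.177 tags in 1452 members (45.5%, 43.8 to 47.3), against 9.495% of shared and 35.7% of lactate-only regions, and 1293 of these 1452 (89.05%) had a pileup of 10 to 13 tags. A pileup of 10 over that background gave a fold of 5.05 and a strength of 7.29, and 566 members had exactly that.

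The distance to the lactate list divided the members into flanking and isolated regions. The gap to the nearest lactate region had a median of 5253 bp and ran from 3 bp to 1628315 bp, against a median of 6670 bp from lactate-only regions to the nearest untreated region. Within 500 bp of a lactate region lay 668 members (20.9%, 19.5 to 22.4), against 7.64% (7.24 to 8.06) of lactate-only regions. From 500 bp to 5 kb lay 886 (27.8%), against 33.8%, and over 5 kb away lay 1636 (51.3%), against 58.6%.

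**Figure D2:**
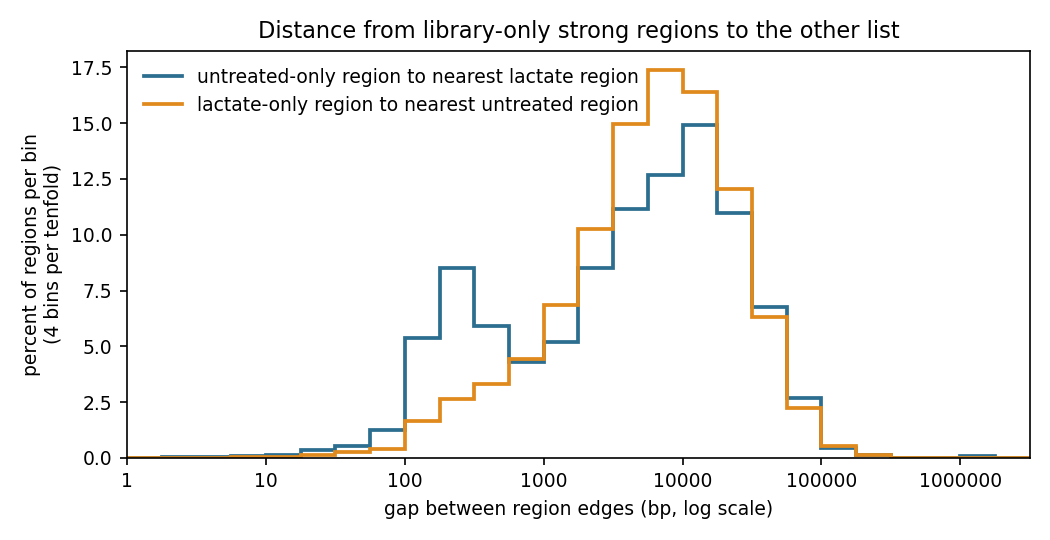
Percent of strong untreated-only regions (blue) and strong lactate-only regions (orange) by the gap in bp to the nearest region of the other list, on a log axis with 4 bins per factor of 10. The untreated-only curve has a separate rise close to the lactate list, below 1000 bp, and 20.9% of untreated-only regions lay within 500 bp, against 7.64% of lactate-only regions.

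The 668 flanking members sat beside regions open in both libraries. For 529 of them (79.2%, 75.9 to 82.2) the nearest lactate region was itself overlapped by an untreated region, and 517 (77.4%) had such a shared untreated region within 500 bp. At these 517 the median pileup was 19 tags over the member. It was 41 over the nearest lactate region and 28 over the nearest untreated region. As tags per 1000000 tags of each library, the medians were 1.04 over the member, 2.66 over the nearest lactate region and 1.53 over the nearest untreated region. The member was lower than its untreated neighbour in 387 of the 517 (74.9%). Exactly 200 bp wide were 130 of the 668 (19.5%), and 134 (20.1%, 17.1 to 23.3) lay at the end of a protein-coding gene.

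The 1636 isolated members were of another kind. They had a median pileup of 11 tags, 70.5% (68.2 to 72.7) were exactly 200 bp wide and 76.7% (74.5 to 78.7) had the local background at its minimum. Gene ends held 42 of them (2.57%, 1.86 to 3.45), and 55.3% lay outside protein-coding genes. The 886 members in between were intermediate, with 49.9% at exactly 200 bp and 4.74% at a gene end. The gene-end share fell with distance in lactate-only regions too. It was 23.3% within 500 bp of an untreated region, 10.45% from 500 bp to 5 kb and 5.29% over 5 kb. Exactly 200 bp wide were 8.39%, 11.9% and 8.78% of lactate-only regions in the same order.

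Flanking and isolated members were both among the 20 members of greatest strength. Of these, 7 lay within 500 bp of a lactate region and 10 over 5 kb away, 6 were exactly 200 bp wide, 8 lay within a gene, 11 outside genes and 1 at a gene end. Their pileups ran from 21 to 70 tags, and per 1000000 tags of each library the nearest lactate region was higher than the member at 11 of the 20.

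The strongest lay 7667 bp from ZNF24, a zinc finger repressor gene (chr18:35324333-35324560, hg38), with a pileup of 50 and a fold of 22.6 over a background of 1.26 tags. No other region of the untreated list was higher than 17 tags within 60 kb of it, and the 6 lactate regions in that stretch had pileups of 7 to 21. Within XKR4, a gene of the XK family of phospholipid scramblases, a pair of members 1215 bp apart had pileups of 56 (chr8:55183249-55183448) and 46 (chr8:55181835-55182034). The shared regions around that pair, by contrast, were taller in the lactate list, with the highest at 38 tags, against 20 tags in the overlapping untreated region. Within HS6ST2, which encodes a heparan sulfate 6-O-sulfotransferase, another pair 517 bp apart had pileups of 27 (chrX:132768236-132768437) and 24 (chrX:132768954-132769153), and 3 lactate regions within 60 kb had pileups of 8 to 18.

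**Figure D3:**
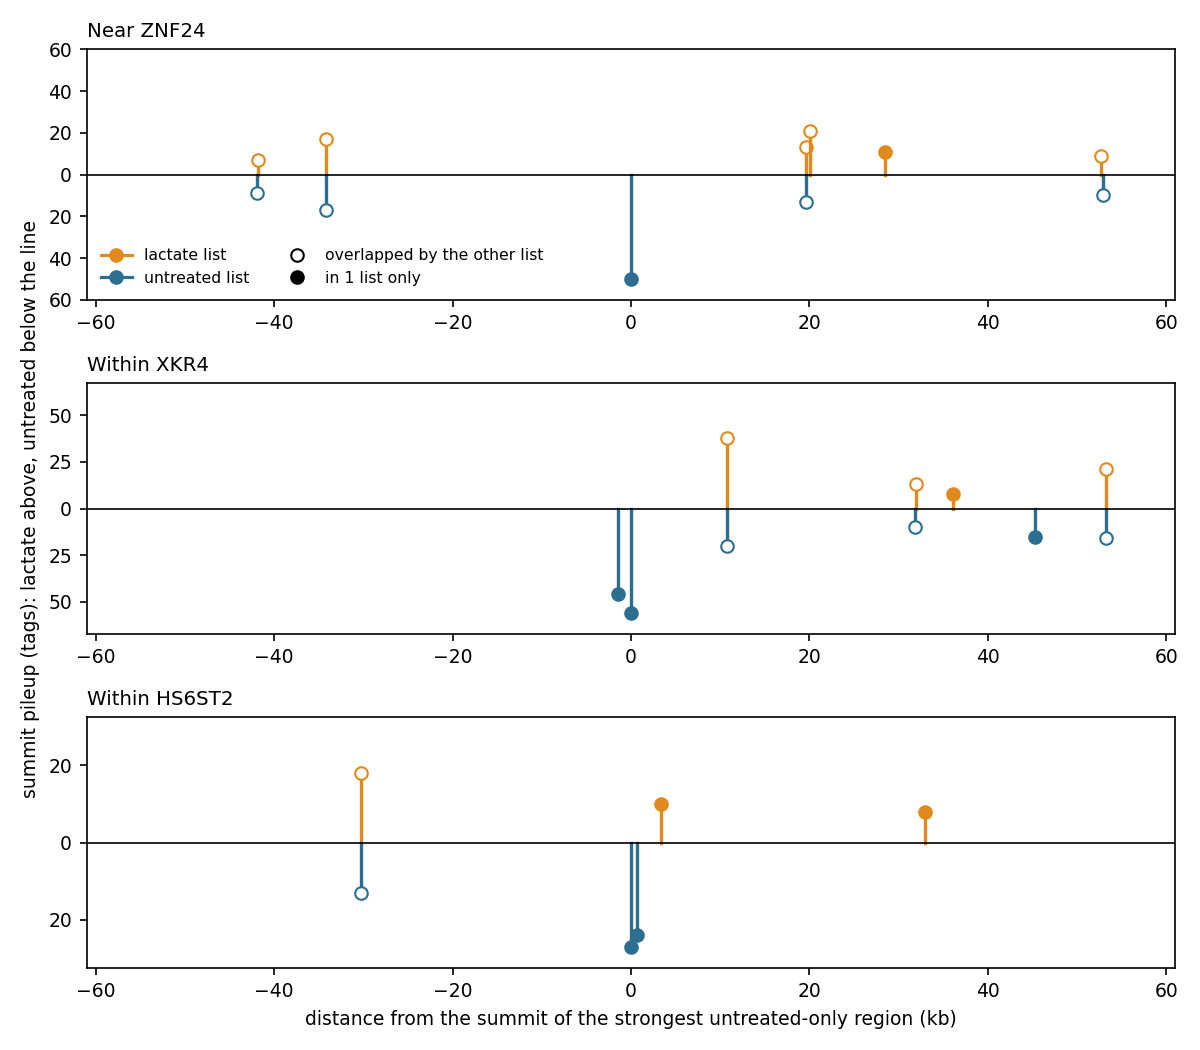
Summit pileup in tags of every listed region within 60 kb of the strongest member near ZNF24, within XKR4 and within HS6ST2, with the lactate list above the line and the untreated list below it. Filled points mark regions of 1 list only and open points regions overlapped by the other list. The members at distance 0 reach 50, 56 and 27 tags, above every other region drawn in their panel.

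Flanking members among the 20 included one 15436 bp from DHX8, an RNA helicase of the spliceosome, with a pileup of 50, 176 bp from a lactate region with a pileup of 128. One within ADAM15, a membrane metalloprotease gene, had a pileup of 47, 223 bp from a lactate region with 74. Near FLYWCH1 the pileup was 58, with a lactate region of 104 tags 258 bp away, and within MACROD2, which encodes an enzyme that removes ADP-ribose, it was 28, with a lactate region of 47 tags 81 bp away. Isolated members among the 20 included one 16677 bp from ABCA3, a lipid transporter of lung surfactant (pileup 26, fold 10.9), and one within PPFIA2, a synaptic scaffold gene (pileup 21, fold 10.1). The one named by PRIM2, the large primase subunit, lay 1516130 bp from that gene on chromosome 6 and 1058958 bp from any lactate region, with a pileup of 21. The widest member covered the KMO start, with a pileup of 23 and a lactate region 451 bp away, and the most summits in a member, 3, were listed near LACTB and MARS2 and at the ends of TMEM87B and ACOXL.

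Gene ends made up a smaller share of untreated-only than of shared regions. Of the 3190, 6.83% (5.98 to 7.765) lay at such an end, while 51.4% were outside genes and 41.8% inside a gene but away from its ends. Of shared regions, 18.8% lay at a gene end and 42.1% outside genes, and of lactate-only regions 8.41% (7.98 to 8.85) and 48.55%. In bands of strength the gene-end shares were 7.18% of members against 11.3% of shared regions from 7 to 8, 6.81% against 12.75% from 8 to 10, and 6.32% against 21.1% from 10 up. The last band has no upper limit, and 16 of all 19035 strong untreated regions of strength 20 or more were members. Strength was therefore not equal in that band. By width the picture changed. Among regions of exactly 200 bp, 2.84% (2.11 to 3.74) of members and 3.13% (2.63 to 3.69) of shared regions lay at a gene end, with overlapping intervals, while among wider regions 11.5% (9.94 to 13.3) and 20.1% (19.8 to 20.4) did.

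The gene-end members belonged to 243 of 19974 protein-coding genes, or 1.22%. At 202 of the 243 genes a lactate region was also listed at an end of the gene, and at 41 none was. The share of all 19974 genes with a lactate region at an end is not given here, so these numbers are a description. Where the strand was known, members lay more at starts than at far ends. Of 246 pairs of a gene and a member, 146 (59.35%) were at the start, 53 (21.5%) at the far end and 4 at both, and 43 had no strand in the promoter table. For shared regions the start had 70.6% and the far end 10.9%.

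Most of the 20 strongest gene-end members were flanks of a taller region. A lactate region lay within 500 bp of 15 of them, and per 1000000 tags of each library the nearest lactate region was higher than the member at 20 of the 20. At SASH1, a scaffold gene and candidate tumour suppressor, the heights were close, with a pileup of 38 over the member at its start (chr6:148192392-148192661) and 35 over the lactate region 206 bp away, or 2.08 and 2.27 per 1000000 tags. CD274, which encodes the checkpoint ligand PD-L1, had a member with a pileup of 32 at its start (chr9:5449647-5449908). A lactate region with 88 tags lay 380 bp from it and an untreated region with 40 tags lay 393 bp from it. OSMR, the oncostatin M receptor, had a pileup of 27 at its start, with a lactate region of 58 tags 173 bp away. At the start of SPAST, which encodes the microtubule-severing spastin, the pileup was 46, with a lactate region of 91 tags 215 bp away. The member shared by the starts of DNAJB9, a chaperone of the endoplasmic reticulum, and THAP5 had 30 tags, and the lactate region 274 bp away had 107. SRC, the tyrosine kinase, had 31 tags, against 55 in a lactate region 183 bp away. HSPB1, a small heat shock protein, had 35 tags, against 58 in a lactate region 517 bp away.

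The members at the 41 genes without a lactate region at an end had 10 to 34 tags. The one of greatest strength was at the far end of OCIAD1, with a pileup of 16, 30399 bp from the nearest lactate region. It was followed by MFAP5, a microfibril gene, with 15 tags and 12679 bp. PENK, the precursor of enkephalins, had 15 tags and lay 34341 bp from the lactate list. NXPH2 and COL6A5 had 14 tags each, and SCN2A, a neuronal sodium channel, and SYCP2L had 13 each. SLC8A1, the sodium and calcium exchanger, had 15 tags and lay 62902 bp from the nearest lactate region. ZNF550 had a flanking member, with 22 tags and a lactate region 167 bp away that did not reach the 1 kb window.

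The untreated-only share differed between chromosomes, and so did the share of regions that were 200 bp wide. It was highest on chromosome 4, with 203 of 2246 strong untreated regions (9.04%, 7.88 to 10.3), and on X, with 133 of 1515 (8.78%, 7.40 to 10.3). It was lowest on chromosome 22, with 27 of 1224 (2.21%, 1.46 to 3.19), and on chromosome 19, with 2.75% (2.08 to 3.565). At exactly 200 bp the shares were 28.1% on chromosome 4, 30.9% on X, 27.1% (15.3 to 41.85) on chromosome 22 and 15.7% (8.61 to 25.3) on chromosome 19. Among wider regions the share still differed, with 4.28% (3.39 to 5.32) on chromosome 4, 3.37% (2.43 to 4.54) on X, 1.19% (0.652 to 1.99) on chromosome 22 and 2.19% (1.58 to 2.95) on chromosome 19, beside 2.63% over all chromosomes. Regions of 200 bp made up 19.95% of the strong untreated regions of chromosome 4 and 19.7% of those of X, but 3.92% on chromosome 22 and 4.15% on chromosome 19. The lactate-only share of strong lactate regions ran from 16.95% on chromosome 15 to 24.7% on chromosome 4, and it was above the untreated-only share on each of the 23 chromosomes.

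**Figure D4:**
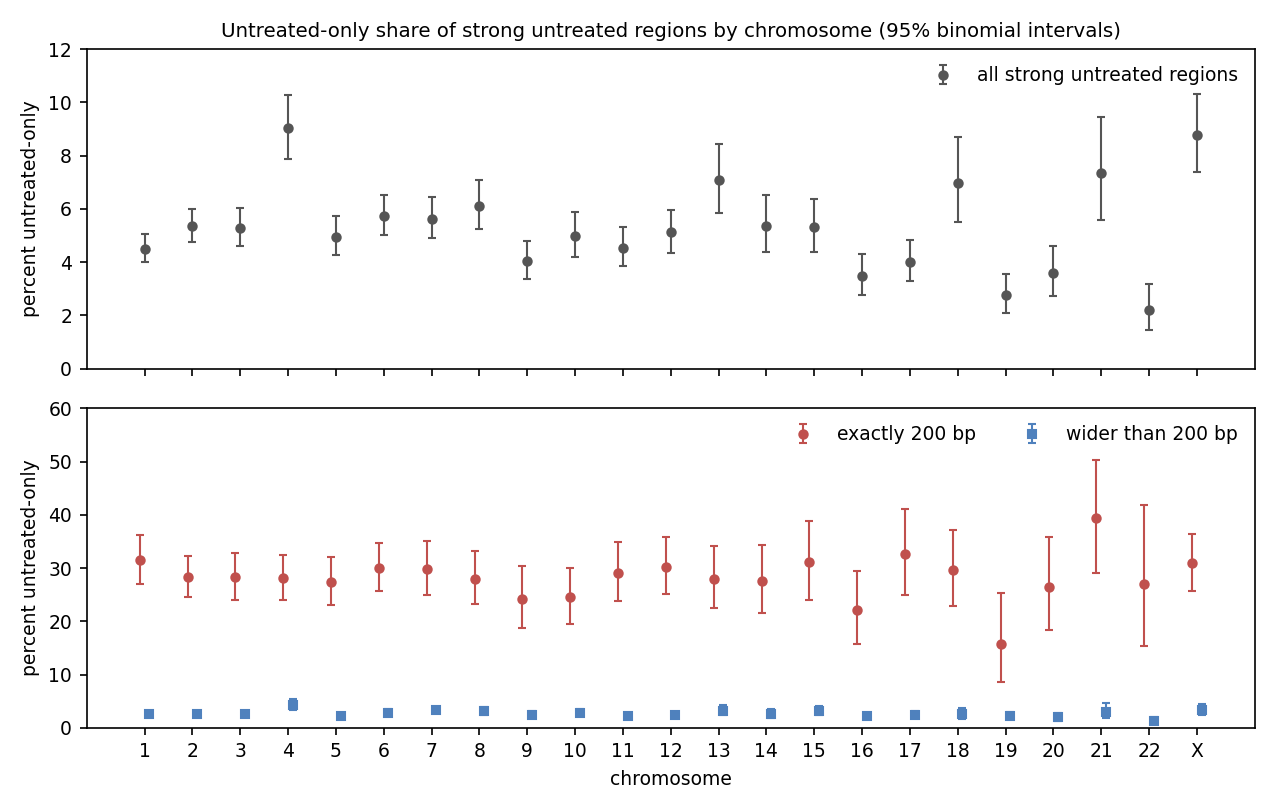
Percent of strong untreated regions that were untreated-only on each chromosome, over all widths (top) and split into exactly 200 bp and wider (bottom), with 95% binomial intervals. The top panel ranges from 2.21% on chromosome 22 to 9.04% on chromosome 4, and in the bottom panel the wider regions range from 1.19% on chromosome 22 to 4.28% on chromosome 4, while the 200 bp points, with wide intervals, range from 15.7% on chromosome 19 to 39.3% on chromosome 21.

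Long genes and wide gene-free stretches held larger untreated-only shares. For regions within a gene and away from its ends, the share was 3.52% (2.63 to 4.605) in genes under 20 kb and 8.78% (7.79 to 9.86) in genes over 500 kb. Outside genes it was 4.95% (4.39 to 5.56) within 10 kb of a gene and 13.4% (11.8 to 15.2) beyond 500 kb. The lactate-only share of strong lactate regions was higher there as well. It was 22.5% in genes under 20 kb and 24.8% in genes over 500 kb, and outside genes 21.8% within 10 kb and 25.3% beyond 500 kb. Among regions of exactly 200 bp the untreated-only share was 20.8% (12.4 to 31.5) in genes under 20 kb and 28.0% (24.5 to 31.7) in genes over 500 kb. Outside genes it was 29.8% within 10 kb and 29.3% beyond 500 kb. Among wider regions it was 2.55% (1.78 to 3.53) in genes under 20 kb and 3.70% (2.98 to 4.55) in genes over 500 kb, and outside genes 3.32% (2.84 to 3.85) within 10 kb and 3.79% (2.695 to 5.16) beyond 500 kb. In all, 261 members (8.18%) lay within genes longer than 500 kb, against 4.87% of shared regions, and 216 (6.77%) lay over 500 kb from a gene, against 2.38%. At exactly 200 bp, 10.1% of members and 10.45% of shared regions lay in such genes, and 10.3% and 9.96% lay that far from one.

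**Figure D5:**
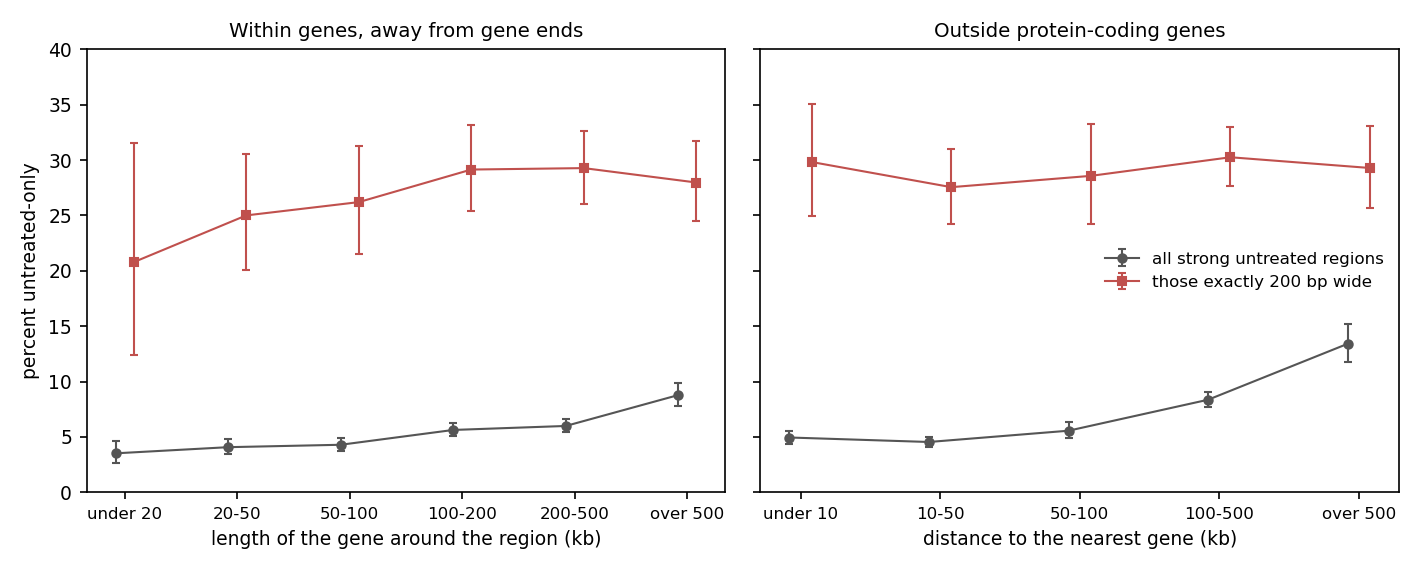
Percent of strong untreated regions that were untreated-only, by length of the surrounding gene (left) and by distance to the nearest protein-coding gene (right), with 95% binomial intervals. Over all widths (grey) the percent reaches 8.78% in genes over 500 kb and 13.4% beyond 500 kb from a gene, while regions of exactly 200 bp (red) stay between 20.8% and 30.3%.

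The genes holding the most members were long ones. CNTN5, a contactin of neuronal contacts that spans 1338 kb, held 5 members among 9 strong untreated regions, and CTNNA3, an alpha catenin gene of 1851 kb, held 5 of 14. CADM2 and IL1RAPL1, both of synaptic adhesion or signalling, held 4 of 9 and 4 of 7. GRIK2, a kainate receptor subunit, held 3 of 3. ASAP1, with 391.6 kb the shortest gene with 4 members, is a regulator of ARF GTPases and held 4 of 14.

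Among gene lists, those of long neuronal genes had the largest untreated-only shares. Each list counts strong untreated regions within its genes or within 1 kb of their ends, beside the 5.17% of all strong untreated regions. For synaptic adhesion genes, with a median length of 959.1 kb, 43 of 298 regions in 23 of 39 genes were untreated-only (14.4%, 10.6 to 18.9). For neuronal channels and receptors it was 20 of 170 (11.8%, 7.34 to 17.6). The lactate-only shares of strong lactate regions were also largest in these lists. They were 29.9% (25.2 to 35.0) and 28.4% (22.45 to 34.9), beside 19.8% of all strong lactate regions. Among the 200 bp regions of these lists the untreated-only shares were 30.7% and 30.4%, beside 28.6% of all 200 bp regions. Among wider regions they were 12 of 197 (6.09%, 3.19 to 10.4) and 6 of 124 (4.84%, 1.796 to 10.2), beside 2.63% of all wider regions. The strongest were in LRRTM4 (pileup 19, fold 8.26), CNTN5 (pileup 18, fold 7.48), KCNIP4 and SCN1A (pileup 17 and fold 8.27 each). Of 7 neuron markers, 3 were marked at a gene end by the lactate list and 4 by the untreated list, and STMN2 and GAD1 were marked in neither. SNAP25, a synaptic vesicle fusion gene, had a member there, and both libraries were of the CAL27 line.

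Lists closer to the tumour and the treatment had untreated-only shares whose intervals covered the 5.17% of all strong untreated regions. Squamous identity genes held 3 of 85 (3.53%, 0.734 to 9.97). These were at an end of TFAP2A, an epidermal transcription factor gene (pileup 35, fold 3.125, 156 bp from a lactate region), at an end of the desmocollin gene DSC3 (pileup 15, 561 bp away) and within the integrin gene ITGA6 (pileup 22, 734 bp away). Glycolysis and lactate genes held 2 of 85 (2.35%, 0.286 to 8.24). SLC16A3, the lactate exporter MCT4, had a pileup of 34 and a fold of 3.52 at one of its ends (chr17:82217760-82217959), 173 bp from a lactate region. BSG, the basigin that carries such transporters to the membrane, had 29 tags and a fold of 3.425 (chr19:571688-571897), 244 bp from one. The histone acylation list held 3 of 77 (3.90%), all within HDAC9, a histone deacetylase gene with 21 strong untreated regions. Its strongest had 19 tags and lay 2006 bp from a lactate region.

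Mesenchymal transition and matrix genes held 5 of 59 (8.475%, 2.81 to 18.7). They included ZEB2, a repressor of E-cadherin (pileup 13, 10601 bp from the lactate list), the receptor gene TGFBR2 (pileup 17, 152 bp), TNC (pileup 24, 3722 bp) and COL6A5. Cell cycle and growth genes held 4 of 95 (4.21%), with 2 in MET, the strongest of which had 27 tags 132 bp from a lactate region, 1 in FGFR2 (pileup 25) and 1 in EGFR. The EGFR member had 74 tags over a local background of 33.2 tags, which gave a fold of 2.196. Cadherins and protocadherins held 5 of 102 (4.90%), and hypoxia and angiogenesis genes 1 of 48 (ANGPT1, pileup 10). Cytokine and interferon genes held 1 of 32 (MX1, pileup 21) and housekeeping genes 1 of 25 (YWHAZ, pileup 43). AP-1 and immediate early genes held 0 of 28, which allows a share of up to 12.3% by the exact interval. All of these intervals that are given cover 5.17%.

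Of 20 squamous keratinocyte markers, 18 were marked at a gene end by the lactate list and 17 by the untreated list. TP63 and KRT14 were marked in neither. For all markers only the outer ends in the gene table were read, so starts further inside a gene were not covered. Fibroblast markers had 3 and 4 of 8 and leukocyte markers 5 and 5 of 8. The 6 endothelial markers had none in either list. For these markers and those of neurons, the share of all protein-coding genes marked in each list is not given here. The counts are therefore a description.

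The members were scattered, with a median of 589908 bp between neighbours, and the windows with most of them held few. In windows of 1 Mb, 1864 held any member, 993 of them 1 and the fullest 7. That window, chromosome 18 from 31 to 32 Mb, spans the desmocollin and desmoglein genes, whose cadherins hold desmosomes together, and 7 of its 22 strong untreated regions were members. They lay at an end of DSC3 (pileup 15), in DSC2 (11), in DSG4 (10), in and near DSG2 (21, 12 and 10) and in TRAPPC8 (13). The lactate list had 6 lactate-only regions among 21 strong ones in the same window. A further 8 windows held 6 members each. On chromosome 6 from 26 to 27 Mb, 6 of 76 strong untreated regions were members (7.895%), beside 5.17% of all strong untreated regions. Of these 6, 3 lay at ends of the histone genes H4C2 (pileup 44), H4C3 (28) and H1-3 (23), each within 285 bp of a lactate region. On chromosome 4 from 80 to 81 Mb, 6 of 16 strong untreated regions were members, of which 4 carried the name of CFAP299. The others were on chromosome 1 around SLC22A15 and PTGFRN, on chromosome 7 around ABCB5 and SP8 and on chromosome 8 in ASAP1 and ADCY8. The rest were on chromosome 13 around CDK8, on chromosome 15 in RNF111 and MYO1E, and on chromosome 16 around ABCA3 and FLYWCH1. Across these other windows the untreated-only share ran from 8.45% on chromosome 16 to 23.1% on chromosome 13.

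Of the 3 members over miRNA hairpins, 1 flanked a lactate region. MIR34C belongs to the miR-34 family, which p53 induces, and the member over it (chr11:111513234-111513549) had a pileup of 10 and a fold of 5.05, 2584 bp from a lactate region. MIR320B1 was overlapped by a member of 16 tags (chr1:116671759-116671958) and a fold of 5.15, 3784 bp from the lactate list. MIR550A1 and MIR550B1 are read from opposite strands of the same place within ZNRF2, so that 1 member (chr7:30289668-30289941) covers both. It had 36 tags and a fold of 5.24, and a lactate region lay 344 bp away.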

How the data were processed

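ATAC-seq peak lists of 1 lactate and 1 untreated CAL27 library were used, grouped by their treatment labels. Per the submitters' processing notes, reads were handled with fastp 0.20.0, BWA 0.7.12 and MACS2 2.1.0 on hg38. Per the file headers the caller was MACS 2.2.7.1, run per library without a control, with a q-value threshold of 0.05, tags shifted by 100 bp and extended to 200 bp, and summit calling on. The headers give 15401276 lactate and 18248413 untreated tags.

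The deposited pileup is a signal, the unscaled number of extended tags over a summit. The deposited fold enrichment is the ratio of pileup to local background with 1 added to each, and it is the authors' own value for each peak. Positions were deposited as 1-based base pairs, an other unit. Local background was recovered from both values, and the upper-tail Poisson −log10 p was recomputed from them, keeping the best summit of each region. Regions overlapping by 1 bp or more were called shared.

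Genes (19974 protein-coding), promoters and miRNAs came from RefSeq tables of GRCh38.p14, the same build. The promoters of chromosome 8 were not analysed here. No genome sequence was used, so regions outside the promoter table have none printed. Python 3.11.15, pandas 2.3.3, scipy 1.17.1 and matplotlib 3.10.9 were used, and the interval code was tested on simulated data.

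The members and all gene and motif lists were chosen with earlier results of these data known. Named regions were the 20 strongest members, the 20 strongest at gene ends, the 5 widest, the 5 with most summits, the 3 on each side of the threshold, up to 4 genes per list, the 5 fullest windows of 1 Mb with ties, and the 6 strongest over a promoter start off chromosome 8. A few items that these rules select are not reported here. A region is named by the gene it lies in, or else by the nearest one. The closing section gives the alternatives tried.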

Additional observations from a re-analysis of the deposited data

How the results depend on the processing

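Of the alternative values, 21 stayed within the counting interval of a share or median, or within 1.5 times a count, and 23 moved. With a strength of 5 or more the members numbered 6427 (8.605%), and with 10 or more 728 (1.643%, median gap 4268 bp). Asking for no lactate region within 500 bp gave 4.09% of strong untreated regions, 3.33% at gene ends, 54.3% outside genes and a median gap of 8476 bp. Keeping the narrow class gave 4.98% and 5871 bp. A fold of 5 or more in place of strength gave 4.395%, with 3.20% at gene ends, 55.7% outside genes, 5.57% of members on X and 10157 bp. A gene end of 2 kb held 10.6%. Leaving out regions of exactly 200 bp, an alternative added after seeing the data, left 1465 members (2.63%), with 11.5% at gene ends, 47.2% outside genes, 2.80% of the members on X, against 4.17% of all 3190 members, and 1734 bp. Choosing the summit with the highest pileup moved none of the 6 values. In every setting tried the members at gene ends were fewer than those outside genes.

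No paired analysis was possible because there was just 1 library per treatment. Leaving out a replicate was not possible for the same reason. Members with 10 to 13 tags limit what a single region can show, since a few tags decide whether a region passes the strength of 7. Whether the lactate library had fewer tags at a member was not measured, as the lists give tags at listed summits only.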

Other observations

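Close neighbours among the members were few. There were 27 neighbouring pairs within 2000 bp, holding 53 members (1.66%). Besides those in XKR4 and HS6ST2, the pairs with the highest weaker partner were in NCAM2, a neural adhesion gene on chromosome 21, with pileups of 19 and 20 and folds of 9.185 and 9.63 at 757 bp from each other, and near FLYWCH1, with 58 and 52 tags at 169 bp. In CNTN5 a pair had 17 and 18 tags at 1014 bp, and near LCE1E, a late cornified envelope gene of the epidermis, one had 29 and 18 tags at 397 bp. PTPN1, a tyrosine phosphatase gene, named 3 members in a row with 33, 34 and 39 tags. These pairs were picked after their values were seen.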
